A study of Mus musculus with 30 samples.

Results

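The interferon-stimulated genes examined here were 47 genes chosen by symbol, all of which were found by name in both count tables, among 54838 genes in the kidney table and 55487 in the gastrocnemius table. They comprise 5 transcription factors, 5 nucleic acid sensors, 5 genes of the OAS family, 4 of the IFIT family, 2 of the ISG15 system, 11 other antiviral effectors, 9 interferon-inducible GTPases and 6 genes of the immunoproteasome and MHC class I presentation. RNA-seq libraries came from kidney and gastrocnemius, a hindlimb muscle, of male WT C57BL/6J mice that were all housed at thermoneutrality (30 to 32 °C) from 6 weeks of age. Mice of the first group were fed chow diet (CD) and received water, those of the second were fed western diet (WD) and received water, and those of the third were fed WD and gavaged with CHP, the cyclic dipeptide cyclo(His-Pro), 3 times weekly at 20 mg/kg. Diets and gavage began at Week 7, and tissue was taken at Week 24 following 3 h without food. There were 5 libraries for each group in each tissue, which makes 30. The study's supplement lists 24 male mice aged 24 weeks. If all libraries came from these, some mice gave both tissues, but the sources do not say which.

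Interferons are secreted proteins that bind receptors on the cell surface and activate JAK kinases, which phosphorylate STAT proteins. Type I interferons act mainly through a complex with IRF9 that binds the interferon-stimulated response element (ISRE), and interferon gamma acts mainly through the gamma-activated site (GAS). The induced genes encode sensors of viral nucleic acid, proteins that block viral replication, GTPases that act on vacuoles holding pathogens, and the machinery that presents peptides on MHC class I. Many of them are also expressed at a low level without infection, in immune and in tissue cells.

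Promoters were searched because the members were chosen as interferon targets and several of them belong to duplicated gene families. RefSeq promoters (GRCm38.p6, 250 bases before to 50 after the start of a transcript) matched 36 of the 47 members. An ISRE-like motif, GAAANNGAAA on either strand, was found in 20 of these 36 and in 3.99% of all 27025 genes with a promoter. A GAS-like motif, TTCNNNGAA, which reads the same on both strands, was found in 12 of 36 and in 9.55% of all genes, and both motifs were found in 7 of 36 and in 0.540% of all genes. By role, the ISRE-like motif was held by all 7 GTPases with a promoter, 3 of 3 sensors, 1 of 1 gene of the ISG15 system and 3 of 4 IFIT genes. It was also held by 2 of 4 OAS genes, 2 of 7 other effectors, 1 of 5 transcription factors and 1 of 5 genes of antigen presentation. A match is only a match of letters. The 8 stretches below show 3 of the 6 called members (Gbp7, B2m and Irf8), 2 pairs of near copies and Isg15, which holds 3 overlapping matches, with the motif matches in capitals, read 5′ to 3′ on the strand of the gene. Isg15 lies at chr4:156200859-156200918 (minus strand), Ifit3 at chr19:34583359-34583428, Ifit3b at chr19:34607755-34607824, Igtp at chr11:58199486-58199545, Irgm2 at chr11:58214877-58214936, Gbp7 at chr3:142530216-142530305, B2m at chr2:122147527-122147586 and Irf8 at chr8:120736168-120736227, the last 7 on the plus strand. Of the other called members, the Cmpk2 promoter held neither motif, the match of Ifih1 lies after the start, and Oas2 was not among the matched promoters.
Isg15: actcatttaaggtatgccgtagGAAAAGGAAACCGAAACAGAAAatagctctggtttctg
Ifit3: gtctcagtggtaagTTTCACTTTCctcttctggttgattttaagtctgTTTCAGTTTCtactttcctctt
Ifit3b: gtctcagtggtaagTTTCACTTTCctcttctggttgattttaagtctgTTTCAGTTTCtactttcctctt
Igtp: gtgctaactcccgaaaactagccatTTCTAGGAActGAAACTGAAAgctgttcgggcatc
Irgm2: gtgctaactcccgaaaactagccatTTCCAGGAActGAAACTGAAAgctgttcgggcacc
Gbp7: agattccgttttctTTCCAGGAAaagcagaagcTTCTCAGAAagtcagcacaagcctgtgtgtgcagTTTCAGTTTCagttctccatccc
B2m: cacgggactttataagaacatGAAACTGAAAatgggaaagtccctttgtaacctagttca
Irf8: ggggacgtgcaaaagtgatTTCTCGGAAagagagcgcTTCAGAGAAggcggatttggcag

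The stretches of Ifit3 and Ifit3b hold the same 70 letters, and their whole promoter windows were identical at 75.0% of 268 aligned bases. Those of Igtp and Irgm2 were identical at 68.1% of 270 aligned bases. Copies also matter for the counts, since a read from a shared stretch cannot be placed with certainty. Of all 50-base stretches of the transcript, 59.7% in Gbp6, 57.6% in Oas1a, 51.2% in Ifit3 and 45.0% in Ifit3b also occur in another gene, and for Rtp4, Gbp7, Tap2, Igtp and Ifi35 the shares were 13.6%, 12.8%, 12.6%, 12.3% and 10.7%. The values of these 9 genes are uncertain to that extent, and the remaining members share less than 10%.

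The kidney libraries held 37189192 to 38211422 counts and the gastrocnemius libraries 50319024 to 53282969. Levels are given as CPM (counts per 1000000 counts) on library sizes scaled by TMM within the tissue, with the libraries of a group in the order of their replicate numbers, by which they are also named (CD 2 is replicate 2 of the CD group). After a filter on low counts, 17120 genes were tested in kidney and 15419 in gastrocnemius. All 47 members passed in kidney and 46 passed in gastrocnemius, where Oas3 had 2 to 12 counts per library. The labels name frozen liver as starting material for all libraries, whereas the study's methods name kidney and gastrocnemius. The summed level of 10 proximal tubule markers was 29710 to 37400 CPM in the kidney libraries and 220.5 to 379.5 CPM in gastrocnemius, where Miox, Slc22a6 and Slc5a12 were at 0. The summed level of 10 muscle fibre markers was 214200 to 287400 CPM in gastrocnemius and 17.9 to 29.3 CPM in kidney, where Myh2 and Myh4 were at 0.

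The transcripts of the 10 interferon ligand genes read here were at or near 0. Of these genes, 7 had no count in any kidney library and all 10 had none in gastrocnemius. In kidney, Ifng, the gene of interferon gamma, had 10 counts in 9 libraries together, and Ifnl3 and Ifnk had 3 counts each. A count of 0 over the 566208577 counts of the 15 kidney libraries allows a level of up to 0.0053 CPM (3 counts), and over the 783762803 counts of gastrocnemius up to 0.00383 CPM. These limits cover counting error only.

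In both tissues B2m, the invariant light chain of MHC class I, had the highest level per length among the members. On CD, it reached 357 CPM per kilobase of exon in kidney and 52.5 in gastrocnemius. In kidney it was followed by Trim25, a ubiquitin ligase that acts with the sensor RIG-I, at 16.3, Ifit3 at 10.1, Irgm2 at 7.37 and Bst2, the tetherin of enveloped viruses, at 7.25 CPM per kilobase. In gastrocnemius the next were Bst2 at 4.08, Irgm2 at 3.87, Ifi35 at 3.85 and Igtp at 3.27 CPM per kilobase. The lowest in both tissues were Oas3, at 0.0733 and 0.0158, and Mx1, at 0.190 and 0.0566 CPM per kilobase. The plot of levels per length places every member by its level in both tissues.

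**Figure D1:**
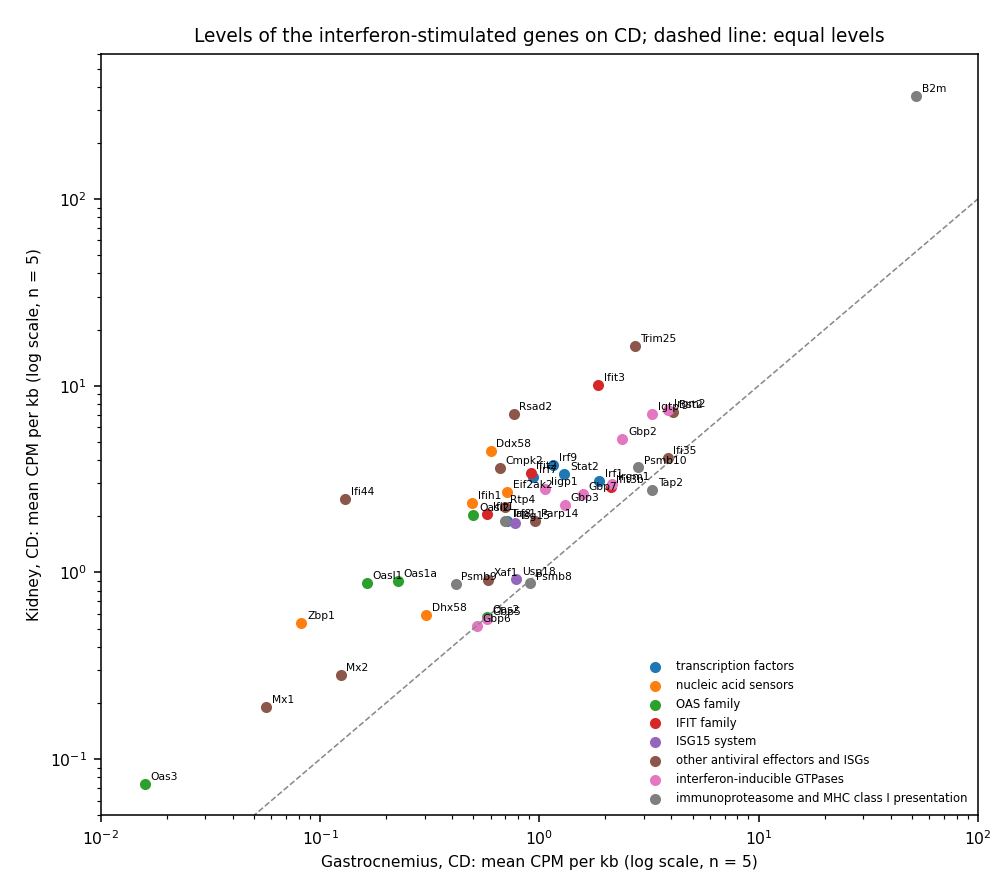
Mean CPM per kilobase of exon of each member in the CD libraries of gastrocnemius (horizontal axis) and kidney (vertical axis), both on log scales, n = 5, each tissue scaled on its own, with colours for the roles and a dashed line at equal levels. B2m stands alone at the upper right (52.5 and 357), and Oas3 at the lower left (0.0158 and 0.0733).

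In 1 model over all 30 libraries, 37 of the 47 members differed between kidney and gastrocnemius on CD at an adjusted p under 0.05 (edgeR quasi-likelihood test, Benjamini-Hochberg over 18708 genes), 27 higher and 10 lower in kidney, where 88.1% of all genes differed, 46.6% higher and 41.5% lower. With libraries scaled by the total count alone, 41 differed, 40 higher and 1 lower, and the median log2 difference of all genes moved from 0.13 to 0.98, so the direction of a member is relative to that shift. The highest estimate was that of Ifi44, an interferon-induced cytoplasmic protein, at 3.45 ± 0.15 (log2, SE). Rsad2 (viperin, which makes an antiviral nucleotide from CTP) differed by 2.42 ± 0.14, Ddx58 (the RNA sensor RIG-I) by 2.10 ± 0.07 and B2m by 1.97 ± 0.08. The lowest was Tap2, a subunit of the peptide transporter, at −1.04 ± 0.07, followed by Psmb8, a subunit of the immunoproteasome, at −0.85 ± 0.14. Ifit3 was higher in kidney by 1.65 and its near copy Ifit3b lower, at −0.35. These 2 genes share many stretches of sequence, as given above, and the tables of both tissues rest on different annotation releases. Tissue cannot be told apart from the separate preparation and counting of both sets. The model took all libraries as independent, and any mice that gave both tissues were not paired.

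The diet comparison asks how WD feeding moved these genes. Compared with CD feeding, 2 of 47 members passed the threshold in kidney of WD-fed mice, Cmpk2 and B2m, both higher, which is 4.26% of the members against 9.65% of all genes tested (4.62% called higher and 5.03% lower). In gastrocnemius 2 of 46 passed, Oas2 higher and Gbp7 lower, or 4.35% against 8.63% of all genes (4.67% called higher and 3.96% lower). In both tissues the share of members called was below that of all genes. DESeq2 called 5 of 47 members in kidney (B2m, Cmpk2, Oas2 and Rsad2 higher, Igtp lower) and 3 of 46 in gastrocnemius (B2m and Oas2 higher, Gbp7 lower), against 11.9% and 11.4% of all genes. At an unadjusted p under 0.05 there were 12 members in kidney (9 higher, 3 lower), or 25.5% against 24.9% of all genes, and 8 in gastrocnemius (6 higher, 2 lower), or 17.4% against 23.7%. The gastrocnemius count was 13 without WD 4, where 3630 of 15551 genes passed, and 6 without WD 1 or WD 5. More estimates were above 0 than below, 30 of 47 in kidney and 32 of 46 in gastrocnemius, with medians of 0.09 on the log2 scale in both tissues while 49.6% of all genes had a lower estimate in either tissue and their medians were 0.0015 and 0.0014. With the total count all genes shifted in gastrocnemius: lower estimates went from 7646 to 5154 of 15419 genes and from 14 to 8 of the members, and the median from 0.0014 to 0.069 over all genes and from 0.09 to 0.16 over the members. With an offset for transcript length and GC content these medians were −0.016 and 0.058. The medians depended on single libraries. Over all 3 comparisons in both tissues, leaving out 1 library moved 198 of the 271 member estimates that were not called by over 1.5 times or across 0, and 0 of the 8 that were called. A called estimate is far from 0 for its SE by selection, so the 0 of 8 does not measure how stable the calls are. Calls of B2m, Ifih1 and Cmpk2 (WD + CHP vs. CD) in kidney and of Irf8 in gastrocnemius were lost without single libraries. In kidney the median was 0.014 without CD 2 and 0.020 without WD 3, each with 25 of 47 estimates above 0, and 0.053 and 0.059 without CD 3 and CD 1. In gastrocnemius it was 0.025 without WD 3, with 25 of 46 above 0, 0.032 without WD 5 and 0.056 without CD 3, and 0.13 to 0.15 without WD 1, WD 4 or CD 2.

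The comparison of WD + CHP with WD asks how CHP moved them. In edgeR's test 0 of 47 members were called in kidney, where 0.105% of all genes were, and 0 of 46 in gastrocnemius, where 0.409% were. At an unadjusted p under 0.05 there were 3 members in kidney (6.38% against 11.4% of all genes) and 10 in gastrocnemius (21.7% against 12.5%), and all of them were lower in WD + CHP. With only the 2 groups compared in the fit the kidney count was 11, where 1991 of 16673 genes passed. Leaving out 1 library gave 1 (without WD 3) to 8 (without WD 4) in kidney. In gastrocnemius it gave 4 (without WD + CHP 1) to 12 (without WD 1 or WD 2), so these shares depended on single libraries. DESeq2 called 0 members in kidney (0.981% of all genes) and 1, Ifit2, in gastrocnemius (1.61%), and limma-voom called 0 in both (0.146% and 0.435% of all genes). The estimates leaned downwards: 38 of 47 members in kidney (80.9%) and 39 of 46 in gastrocnemius (84.8%) had a lower estimate in WD + CHP, against 52.4% and 54.1% of all genes tested. The medians of the members were −0.10 and −0.16 on the log2 scale. Members vary together within a library and are not independent of each other, so these counts carry no test. The same WD libraries stand in the diet comparison, where they were on the high side, and the estimates of both comparisons are therefore not independent. Leaving out each library in turn gave 32 (without WD + CHP 5) to 42 lower estimates in kidney and 35 (without WD 3) to 44 in gastrocnemius. The median in kidney was −0.064, −0.068 and −0.067 without WD 2, WD 3 and WD + CHP 5, and that in gastrocnemius −0.11 without WD 3.

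**Figure D2:**
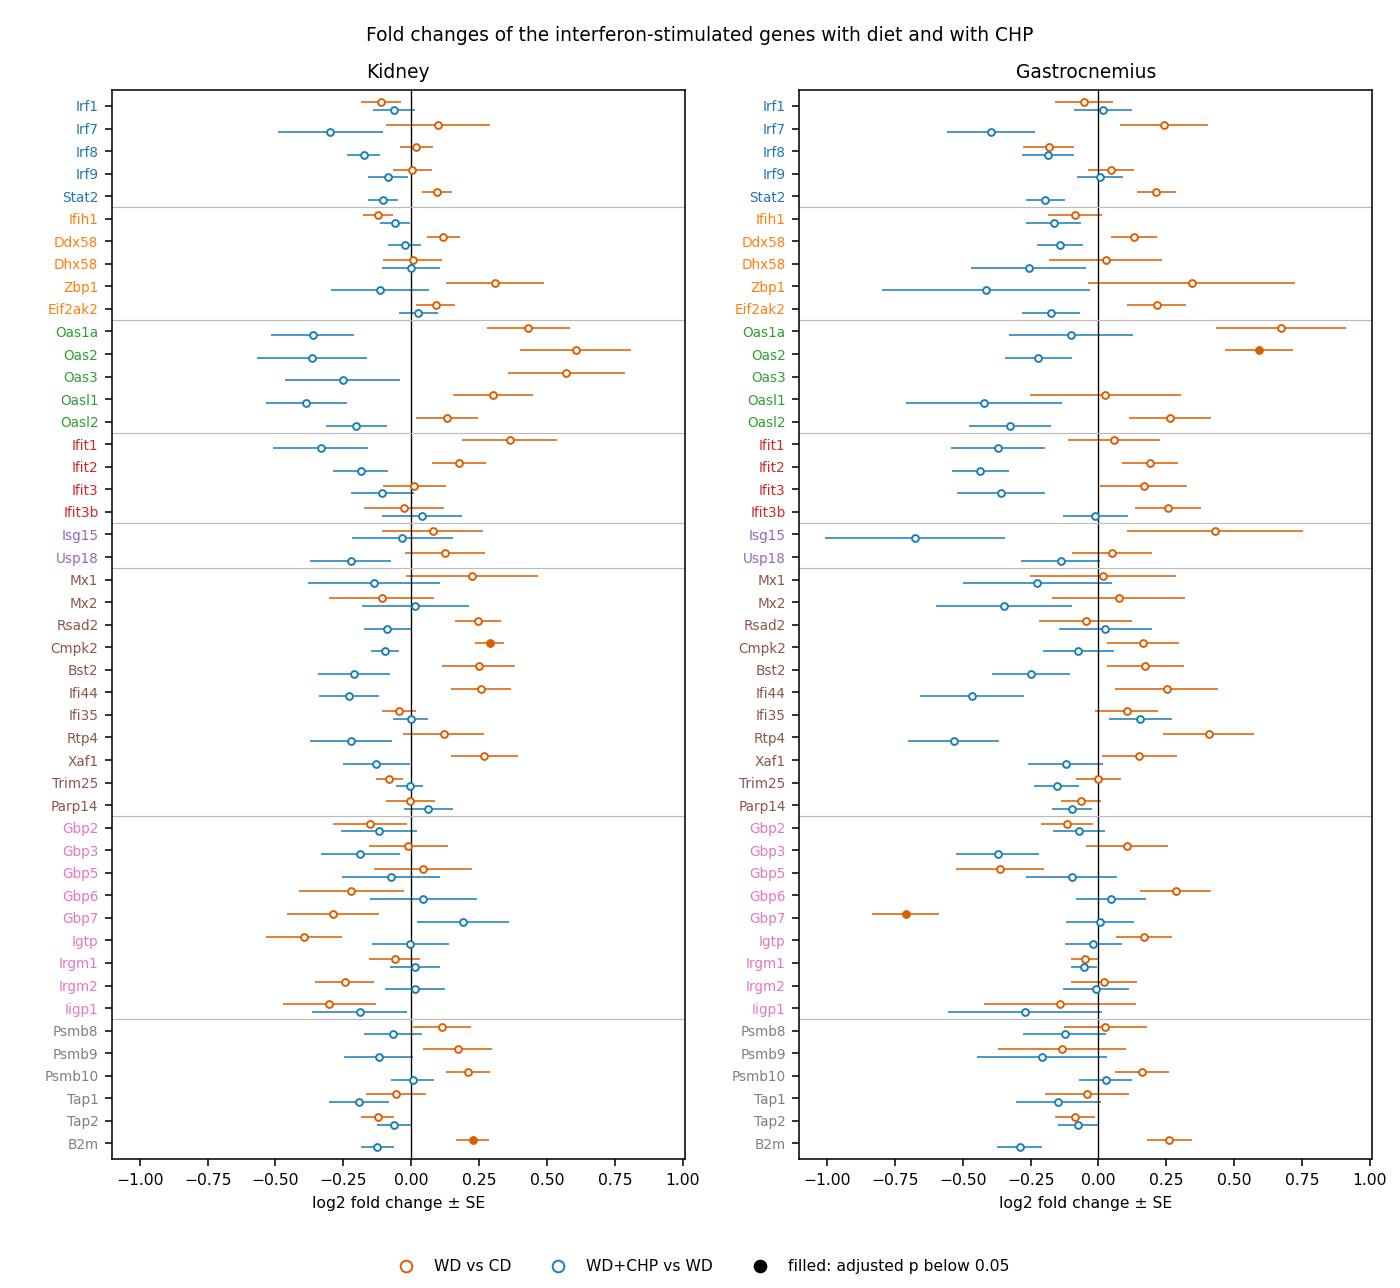
Log2 fold changes ± SE of each member (rows, grouped and coloured by role) in kidney (left) and gastrocnemius (right), for WD vs. CD in orange and WD + CHP vs. WD in blue, with filled points at an adjusted p under 0.05. Only Cmpk2 and B2m in kidney and Oas2 and Gbp7 in gastrocnemius are filled, all for WD vs. CD, and most blue points lie left of 0 (38 of 47 and 39 of 46).

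The comparison of WD + CHP with CD had 2 calls in each tissue. In kidney, Cmpk2 was higher and Ifih1 lower (4.26% of members, 12.1% of all genes, 6.25% higher and 5.84% lower). In gastrocnemius, Gbp7 and Irf8 were lower (4.35% of members, 9.40% of all genes, 4.85% higher and 4.55% lower). Lower estimates numbered 26 of 47 in kidney and 33 of 46 in gastrocnemius, against 51.3% and 52.7% of all genes. The kidney count was 34 of 47 with the total count, where 11040 of 17120 genes had a lower estimate and the median was −0.084 over the members and −0.057 over all genes, and it was 34 without CD 2 and 22 without CD 4, CD 5 or WD + CHP 5. An unadjusted p under 0.05 was found for 10 members in kidney (21.3%) and 12 in gastrocnemius (26.1%), against 27.4% and 25.2%. Leaving out 1 library gave 6 (without CD 1, where 4314 of 17267 genes passed) to 11 in kidney. In gastrocnemius it gave 7 (without CD 3, CD 5 or WD + CHP 3) to 11. Libraries scaled by the total count gave 5 calls in kidney, all lower (Ifih1, Igtp, Iigp1, Irf8 and Tap2), while over all genes the split moved from 1070 higher and 1000 lower to 660 and 1814. These comparisons share their CD libraries with WD vs. CD and their WD + CHP libraries with WD + CHP vs. WD. The plot of the called members shows the 6 genes in the tissue in which they passed.

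**Figure D3:**
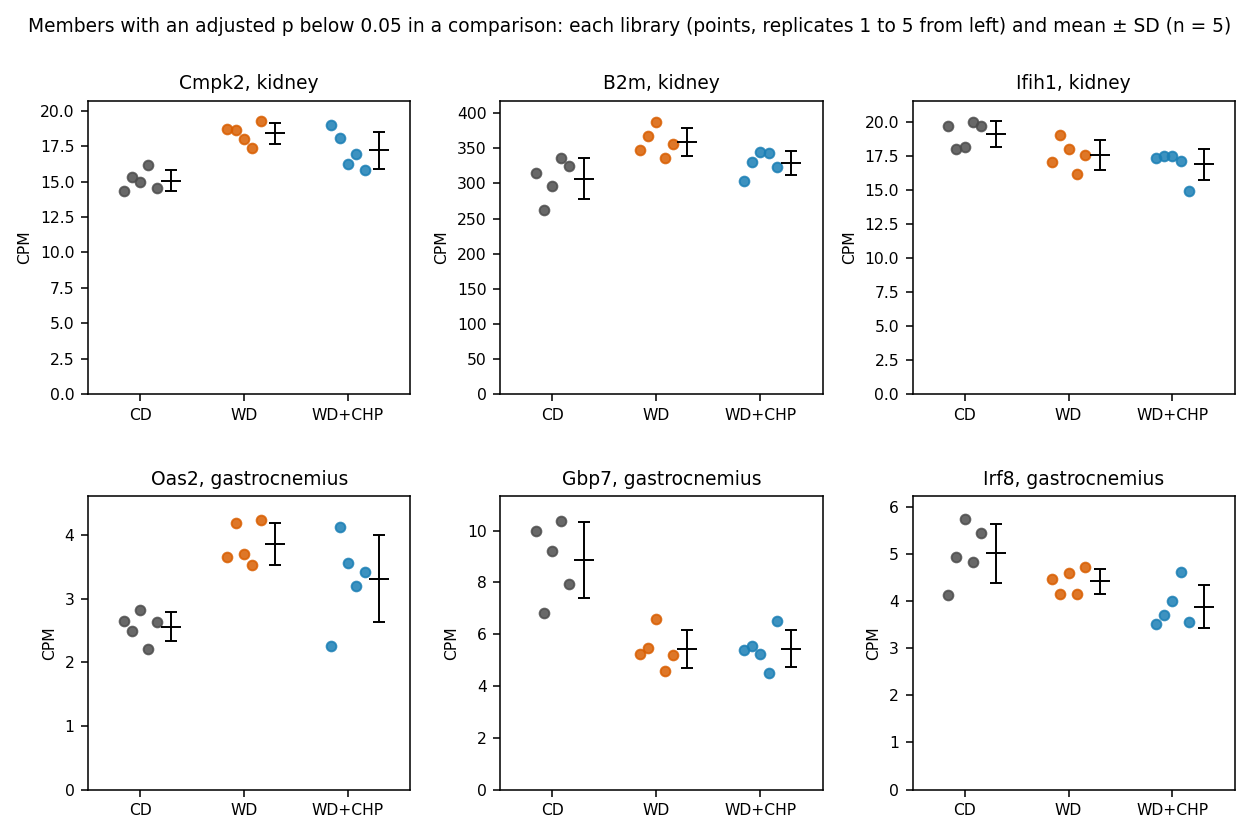
CPM of the 6 members with an adjusted p under 0.05 in at least 1 comparison, with a point per library, replicates 1 to 5 from left, and the mean ± SD (n = 5) beside them. The WD libraries of Cmpk2 in kidney and of Oas2 in gastrocnemius lie above all CD libraries, and the WD and WD + CHP libraries of Gbp7 in gastrocnemius lie below them.

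The transcription factors carry and amplify the signal. By edgeR with all libraries and TMM scaling, DESeq2 and limma-voom 0 of the 5 were called for WD vs. CD or WD + CHP vs. WD in either tissue, with 0 and 1 at an unadjusted p under 0.05 in kidney and 1 and 2 in gastrocnemius. In kidney all 5 had a lower estimate in WD + CHP than in WD, with a median of −0.10, also under both other scalings. Irf8, a factor of myeloid and B cells, was lowest by p there, at −0.18 ± 0.06 (log2, SE; unadjusted p = 0.011, adjusted p = 0.28). In gastrocnemius Irf8 was measured at 4.12, 4.94, 5.75, 4.82 and 5.44 CPM in the CD libraries, 4.46, 4.14, 4.59, 4.15 and 4.73 CPM in the WD libraries, and 3.51, 3.70, 4.01, 4.61 and 3.55 CPM in the WD + CHP libraries. WD + CHP 4 was above CD 1, and the other 4 WD + CHP libraries were below every CD library. Irf8 (GRCm38, chr8:120736358-120756694, plus strand) fell by 0.37 ± 0.10 on the log2 scale in WD + CHP compared with CD (adjusted p = 0.022). The call was lost without CD 3, CD 5, WD + CHP 2 or WD + CHP 5 (adjusted p = 0.0542 to 0.0651). Against WD the difference was −0.19 ± 0.10 (adjusted p = 0.44).

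Irf7, the factor that amplifies type I interferon production, varied widely among libraries. Irf7 in kidney was measured at 9.51, 7.24, 10.5, 15.1 and 18.7 CPM in the CD libraries, 11.9, 15.1, 15.4, 10.4 and 12.6 CPM in the WD libraries, and 12.1, 10.5, 10.8, 10.8 and 9.04 CPM in the WD + CHP libraries. The CD group held both the highest library, CD 5, and the lowest, CD 2, and the other groups lay between them. The differences were 0.10 ± 0.19 for WD vs. CD and −0.30 ± 0.19 for WD + CHP vs. WD, neither called (adjusted p = 0.80 and 0.60). In gastrocnemius Irf7 was measured at 3.08, 3.69, 3.41, 2.54 and 4.92 CPM in the CD libraries, 3.55, 4.92, 4.44, 3.23 and 4.73 CPM in the WD libraries, and 2.40, 3.55, 3.28, 3.26 and 3.36 CPM in the WD + CHP libraries. WD + CHP 1 was the lowest library and CD 5 and WD 2 were the highest. The difference between WD + CHP and WD was −0.40 ± 0.16 (unadjusted p = 0.026, adjusted p = 0.32).

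Irf1, a factor induced mainly by interferon gamma, was not called in these comparisons. Irf1 in kidney was measured at 12.9, 11.7, 12.6, 12.8 and 11.6 CPM in the CD libraries, 9.95, 11.7, 12.7, 9.79 and 12.9 CPM in the WD libraries, and 11.4, 11.6, 10.7, 10.8 and 10.1 CPM in the WD + CHP libraries. WD 1 and WD 4 were lowest and the other WD libraries were within the range of CD. The differences were −0.11 ± 0.08 for WD vs. CD and −0.06 ± 0.08 for WD + CHP vs. WD (adjusted p = 0.38 and 0.81). In gastrocnemius Irf1 was measured at 7.53, 9.06, 7.15, 6.84 and 6.65 CPM in the CD libraries, 6.44, 7.38, 7.18, 8.40 and 6.45 CPM in the WD libraries, and 5.75, 8.16, 6.93, 7.59 and 7.84 CPM in the WD + CHP libraries. The groups overlapped throughout, with differences of −0.05 ± 0.11 and 0.02 ± 0.11, both of which change sign when libraries are scaled by the total count. Stat2, a partner of IRF9 in the type I complex, was higher in the WD group of gastrocnemius by 0.21 ± 0.07 (adjusted p = 0.074), was called there with the total count and without WD 4, and differed by −0.20 ± 0.07 between WD + CHP and WD (unadjusted p = 0.014, adjusted p = 0.27). It was picked out after its values were seen.

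Among the sensors, which detect foreign or misplaced nucleic acid, Ifih1 was the 1 called gene. Ifih1, which encodes the long-RNA sensor MDA5 (GRCm38, chr2:62595798-62646255, minus strand), was measured in kidney at 19.7, 18.0, 18.2, 20.02 and 19.7 CPM in the CD libraries, 17.1, 19.1, 18.0, 16.2 and 17.6 CPM in the WD libraries, and 17.4, 17.5, 17.5, 17.1 and 14.9 CPM in the WD + CHP libraries. All WD + CHP libraries were below all CD libraries, and the WD libraries lay across both. Of all genes, 8.34% had groups without overlap in that comparison. Ifih1 fell by 0.18 ± 0.06 on the log2 scale in WD + CHP compared with CD (adjusted p = 0.042). The call held without CD 2 or CD 3 but was lost when any of the other 8 libraries was left out (adjusted p = 0.0508 to 0.107), with no filter, with the replicate number as a block and with only the 2 groups compared in the fit. Against WD the difference was −0.06 ± 0.06 (adjusted p = 0.74). In gastrocnemius Ifih1 differed by −0.25 ± 0.10 in the same comparison, also without overlap, at an adjusted p of 0.12. The other sensors, Ddx58, Dhx58, Eif2ak2 and Zbp1, had no call in these 3 comparisons. In gastrocnemius all 5 sensors had a lower estimate in WD + CHP than in WD, from −0.41 for Zbp1 to −0.14 for Ddx58. Zbp1 was near the floor there, with 3 to 28 counts per library and the lowest count in WD + CHP 1.

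Enzymes of the OAS family make 2′-5′-linked oligoadenylates that activate RNase L, which degrades RNA, while the OAS-like protein Oasl1 does not make them. The largest positive estimate on WD was that of an OAS gene in each tissue, Oas2 in kidney and Oas1a in gastrocnemius. Oas1a counts were low there, 13 to 31 per CD library and 23 to 46 per WD library, with WD 1 and WD 4 within the range of CD. Oas2 (GRCm38, chr5:120730333-120749853, minus strand) in gastrocnemius was measured at 2.65, 2.50, 2.82, 2.22 and 2.63 CPM in the CD libraries, 3.66, 4.20, 3.71, 3.53 and 4.25 CPM in the WD libraries, and 2.26, 4.14, 3.57, 3.20 and 3.42 CPM in the WD + CHP libraries. All 5 WD libraries were above all 5 CD libraries, and the WD + CHP libraries reached from the level of CD, in WD + CHP 1, to that of WD. Of all genes, 7.84% had groups without overlap here. Oas2 rose from 2.56 ± 0.226 to 3.87 ± 0.331 CPM (mean ± SD, n = 5), by 0.59 ± 0.13 on the log2 scale (adjusted p = 0.0074), and the call held whichever library of the groups compared was left out. Between WD + CHP and WD it differed by −0.22 ± 0.12 (adjusted p = 0.49), and by −0.11 without WD + CHP 1.

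Oas2 in kidney was measured at 2.23, 1.38, 2.69, 3.79 and 2.77 CPM in the CD libraries, 4.33, 4.85, 3.79, 2.51 and 4.11 CPM in the WD libraries, and 3.40, 2.52, 3.06, 3.13 and 3.08 CPM in the WD + CHP libraries. CD 2 was the lowest library and 3 of the WD libraries were above every CD library. The difference between WD and CD was 0.61 ± 0.21, similar in size to that in gastrocnemius but with a wider error (adjusted p = 0.072). DESeq2 called it, and edgeR did so without CD 4 or WD 4. All 5 OAS genes had a higher estimate on WD in kidney (median 0.43, 3 at an unadjusted p under 0.05) and a lower one in WD + CHP than in WD (median −0.36, 2 at an unadjusted p under 0.05), under all 3 scalings. The kidney values for WD + CHP vs. WD ran from −0.39 for Oasl1 to −0.20 for Oasl2. In gastrocnemius the 4 tested genes gave a median of 0.43 on WD and −0.27 in WD + CHP vs. WD. Oas1a, whose transcript shares 57.6% of its 50-base stretches with Oas1g, differed by 0.67 ± 0.24 on WD there (adjusted p = 0.09).

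The IFIT proteins bind viral RNA that lacks host cap marks. By edgeR and limma-voom 0 of the 4 were called for WD vs. CD or WD + CHP vs. WD, and by DESeq2 only Ifit2, in gastrocnemius for WD + CHP vs. WD. In edgeR's test an unadjusted p under 0.05 was found for 3 of them in that same comparison, and for 0 in gastrocnemius for WD vs. CD and in kidney for either. Ifit1 in kidney was measured at 4.84, 3.66, 5.23, 7.12 and 6.51 CPM in the CD libraries, 5.14, 7.74, 8.48, 4.93 and 8.91 CPM in the WD libraries, and 5.59, 5.75, 5.26, 5.77 and 5.58 CPM in the WD + CHP libraries. WD 2, WD 3 and WD 5 were above all other libraries, whereas WD 1 and WD 4 were within the range of CD, and the 5 WD + CHP libraries lay close together. The differences were 0.36 ± 0.18 for WD vs. CD and −0.33 ± 0.18 for WD + CHP vs. WD (adjusted p = 0.21 and 0.50). In gastrocnemius Ifit1 was measured at 1.28, 1.57, 1.44, 1.61 and 1.79 CPM in the CD libraries, 1.26, 1.46, 1.92, 1.20 and 2.16 CPM in the WD libraries, and 1.03, 1.22, 1.01, 1.43 and 1.49 CPM in the WD + CHP libraries. Again WD 3 and WD 5 were highest, and the difference between WD + CHP and WD was −0.37 ± 0.17 (unadjusted p = 0.047, adjusted p = 0.39). In that comparison all 4 IFIT genes had a lower estimate. Ifit2, picked out because it had the smallest p of any member there, was measured in gastrocnemius at 3.08, 3.65, 4.05, 3.20 and 3.94 CPM in the CD libraries, 3.91, 3.88, 4.79, 3.51 and 4.36 CPM in the WD libraries, and 2.65, 3.13, 2.82, 3.49 and 3.02 CPM in the WD + CHP libraries. It was the 1 member whose WD + CHP libraries all lay below all WD libraries, in a comparison where 2.83% of all genes had groups without overlap. Its difference of −0.44 ± 0.11 had an unadjusted p of 0.00073 and an adjusted p of 0.10 in edgeR's test.

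ISG15 is a ubiquitin-like modifier that is joined to proteins, and USP18 removes it. Isg15 in kidney was measured at 1.10, 1.11, 1.25, 1.83 and 1.68 CPM in the CD libraries, 1.32, 1.48, 1.95, 1.08 and 1.55 CPM in the WD libraries, and 1.33, 1.89, 1.47, 1.36 and 1.16 CPM in the WD + CHP libraries. The groups overlapped fully, and the differences were 0.08 ± 0.19 on WD and −0.03 ± 0.19 in WD + CHP vs. WD. In gastrocnemius, where counts were low (16 to 88 per library), Isg15 was measured at 0.735, 0.662, 0.506, 0.326 and 0.692 CPM in the CD libraries, 0.458, 0.581, 0.493, 0.738 and 1.68 CPM in the WD libraries, and 0.370, 0.534, 0.515, 0.608 and 0.439 CPM in the WD + CHP libraries. WD 5 was far above every other library. The difference between WD + CHP and WD was −0.68 ± 0.33 (adjusted p = 0.42) and −0.20 without WD 5, and that between WD and CD was 0.43, which turned to −0.04 without WD 5. Usp18 had no call, with −0.22 in kidney and −0.14 in gastrocnemius for WD + CHP vs. WD.

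Among the other antiviral effectors, Cmpk2 had the clearest difference. Cmpk2, a mitochondrial nucleotide kinase whose gene neighbours Rsad2 (GRCm38, chr12:26469204-26479837, plus strand), was measured in kidney at 14.3, 15.3, 14.96, 16.2 and 14.6 CPM in the CD libraries, 18.7, 18.6, 18.0, 17.4 and 19.3 CPM in the WD libraries, and 19.0, 18.0, 16.2, 16.9 and 15.8 CPM in the WD + CHP libraries. All WD libraries were above all CD libraries (8.70% of all genes had no overlap here). The WD + CHP libraries reached from within the range of CD, in WD + CHP 5, to that of WD. Cmpk2 rose from 15.1 ± 0.734 to 18.4 ± 0.735 CPM, by 0.29 ± 0.05 on the log2 scale (adjusted p = 0.003), and was called whichever library of the groups compared was left out. In WD + CHP it was at 17.2 ± 1.29 CPM, higher than CD by 0.19 ± 0.05 (adjusted p = 0.027) and −0.10 ± 0.05 against WD (adjusted p = 0.52). The call against CD was lost without CD 1, CD 5 or WD + CHP 2 (adjusted p = 0.0556 to 0.0588), with no filter, with the total count (0.126) and with only the 2 groups compared in the fit. In gastrocnemius Cmpk2 was not called, at 0.16 ± 0.13 on WD. Of the 11 genes of this role, 7 in kidney and 8 in gastrocnemius (11 with the total count) had a higher estimate on WD, and 9 in each tissue (10 with the total count) had a lower one in WD + CHP than in WD. Rtp4, a chaperone-like protein, had the lowest of these in gastrocnemius at −0.53 ± 0.17 (unadjusted p = 0.0058, adjusted p = 0.20). In kidney Rsad2 differed by 0.25 ± 0.09 on WD (adjusted p = 0.08), and DESeq2, the fit with the replicate block and that with the length and GC offset called it.

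The interferon-inducible GTPases, the GBP and IRG proteins, attack the membranes of vacuoles that hold pathogens and answer mainly to interferon gamma. In kidney their estimates went against those of the OAS family. On WD 8 of 9 were lower (median −0.22), under all 3 scalings, with Gbp5 the exception at 0.04. By edgeR or limma-voom 0 were called, with 2 at an unadjusted p under 0.05 in edgeR's test. CD 1 was the highest of all kidney libraries for Gbp6, Gbp7, Igtp, Irgm1, Irgm2 and Iigp1. The count of lower estimates in this role was not taken without it. Igtp (IRGM3), which guards the cell's own membranes, was measured in kidney at 17.8, 10.6, 15.1, 14.2 and 13.8 CPM in the CD libraries, 8.26, 11.4, 12.8, 9.92 and 12.0 CPM in the WD libraries, and 14.1, 11.3, 9.12, 9.79 and 10.0 CPM in the WD + CHP libraries. CD 1 was the highest library and WD 1 the lowest, and 4 of the 5 CD libraries were above all WD libraries. The difference was −0.40 ± 0.14 on WD (adjusted p = 0.086), and DESeq2 and the fit without CD 2 called it. Between WD + CHP and WD it was −0.00 ± 0.14. In gastrocnemius Igtp was measured at 7.14, 6.45, 6.43, 7.41 and 5.67 CPM in the CD libraries, 6.69, 8.58, 7.47, 6.65 and 7.79 CPM in the WD libraries, and 8.21, 7.13, 5.74, 7.24 and 8.38 CPM in the WD + CHP libraries. These groups overlapped, and the difference on WD was 0.17 ± 0.10 (adjusted p = 0.35).

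Gbp7, a large guanylate-binding protein (GRCm38, chr3:142530342-142550149, plus strand), had the largest change of any called member. In gastrocnemius it was measured at 10.0, 6.81, 9.19, 10.4 and 7.93 CPM in the CD libraries, 5.22, 5.47, 6.60, 4.60 and 5.19 CPM in the WD libraries, and 5.38, 5.53, 5.25, 4.51 and 6.53 CPM in the WD + CHP libraries. All CD libraries were above all WD and all WD + CHP libraries. Gbp7 fell from 8.86 ± 1.48 to 5.42 ± 0.735 CPM on WD, by 0.71 ± 0.12 on the log2 scale (adjusted p = 0.0019), and was at 5.44 ± 0.723 CPM in WD + CHP, −0.70 ± 0.12 against CD (adjusted p = 0.0023) and 0.01 ± 0.12 against WD. The call against CD held in both comparisons whichever library of the groups compared was left out. Of other GBP genes in gastrocnemius, Gbp6 was at 0.28, Gbp3 at 0.11 and Gbp5 at −0.36 on WD, and edgeR called none of them with all libraries, but Gbp5 without WD 3. In kidney Gbp7 differed by −0.29 ± 0.17 on WD (adjusted p = 0.30), with CD 1 at 20.1 CPM and the other CD libraries at 12.8 to 14.3 CPM, and by −0.15 without CD 1.

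Gbp2, the most abundant GBP member per length in both tissues, was measured in kidney at 14.2, 10.2, 12.6, 15.2 and 13.3 CPM in the CD libraries, 9.07, 15.3, 12.5, 9.34 and 12.8 CPM in the WD libraries, and 10.99, 10.9, 10.5, 13.1 and 8.85 CPM in the WD + CHP libraries. The spread within WD, from WD 1 to WD 2, covered nearly all other libraries, and the differences were −0.15 ± 0.14 on WD and −0.12 ± 0.14 in WD + CHP vs. WD (−0.26 to −0.071 and −0.20 to −0.0031 with 1 library left out). In gastrocnemius Gbp2 was measured at 6.37, 6.47, 5.34, 6.31 and 5.57 CPM in the CD libraries, 5.13, 5.38, 6.85, 4.80 and 5.55 CPM in the WD libraries, and 5.03, 5.30, 5.57, 4.61 and 5.84 CPM in the WD + CHP libraries. WD 3 was the highest library and the groups overlapped, with differences of −0.12 ± 0.10 and −0.07 ± 0.10. In WD + CHP vs. CD in kidney all 9 GTPases had a lower estimate (median −0.20), under all 3 scalings, 3 of them at an unadjusted p under 0.05. CD 1, the highest kidney library for many of them, also stands in this comparison. The lowest was Iigp1 at −0.49 ± 0.17 (adjusted p = 0.073), which was called by DESeq2, with the total count, with only the 2 groups compared in the fit and without CD 2.

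The last role is antigen presentation. B2m (GRCm38, chr2:122147686-122153083, plus strand) in kidney was measured at 315, 262, 296, 336 and 325 CPM in the CD libraries, 348, 368, 388, 336 and 356 CPM in the WD libraries, and 304, 331, 345, 343 and 324 CPM in the WD + CHP libraries. All WD libraries but WD 4 were above every CD and WD + CHP library, and WD 4 was level with CD 4. B2m rose from 307 ± 29.1 to 359 ± 19.9 CPM on WD, by 0.23 ± 0.06 on the log2 scale (adjusted p = 0.026), and differed by −0.13 ± 0.06 between WD + CHP and WD (adjusted p = 0.45). The call was lost without CD 3 (adjusted p = 0.0504), WD 2 (0.0505) or WD 3 (0.0682) and with an offset for transcript length and GC content (0.067). In gastrocnemius B2m was measured at 46.2, 46.1, 42.6, 47.4 and 43.7 CPM in the CD libraries, 52.4, 51.8, 57.0, 47.2 and 62.5 CPM in the WD libraries, and 38.7, 41.3, 45.4, 42.4 and 53.7 CPM in the WD + CHP libraries. All WD libraries but WD 4 were above all CD libraries, and WD + CHP 1 was lowest. The difference was 0.26 ± 0.08 on WD (adjusted p = 0.06) and −0.29 ± 0.08 in WD + CHP vs. WD (adjusted p = 0.16). DESeq2, the total count, the fit of only the 2 groups compared and that without WD 4 called the former.

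Psmb8, a catalytic subunit of the immunoproteasome, was measured in kidney at 2.697, 2.93, 2.90, 3.30 and 2.93 CPM in the CD libraries, 2.93, 3.21, 3.33, 3.24 and 3.26 CPM in the WD libraries, and 2.46, 3.15, 3.81, 2.66 and 3.17 CPM in the WD + CHP libraries. The WD libraries lay close together within the range of CD and WD + CHP, and the differences were 0.11 ± 0.11 and −0.07 ± 0.11. In gastrocnemius Psmb8 was measured at 3.52, 3.05, 2.18, 3.09 and 3.48 CPM in the CD libraries, 2.61, 2.77, 3.05, 3.42 and 3.73 CPM in the WD libraries, and 2.09, 3.22, 2.79, 2.55 and 3.65 CPM in the WD + CHP libraries. WD + CHP 1 was lowest and WD 5 highest, and the differences were 0.02 ± 0.15 and −0.12 ± 0.15. Tap1, the partner of Tap2 in the peptide transporter, was measured in kidney at 11.4, 8.77, 10.8, 10.4 and 10.5 CPM in the CD libraries, 7.44, 11, 12.1, 9.71 and 9.69 CPM in the WD libraries, and 9.92, 9.69, 7.93, 8.01 and 8.04 CPM in the WD + CHP libraries. WD 1 was lowest and WD 3 highest, so that the WD group spanned all libraries. In gastrocnemius Tap1 was measured at 4.64, 4.12, 3.10, 3.95 and 3.38 CPM in the CD libraries, 2.76, 3.35, 4.64, 3.97 and 3.90 CPM in the WD libraries, and 3.02, 3.58, 2.61, 3.08 and 4.52 CPM in the WD + CHP libraries. None of the differences of Psmb8 or Tap1 was called in either tissue, and those of Tap1 in WD + CHP vs. WD were −0.19 ± 0.11 in kidney and −0.15 ± 0.16 in gastrocnemius. Psmb10 was higher on WD in kidney by 0.21 ± 0.08 (adjusted p = 0.11).

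The members tended to be high or low together in single libraries. In kidney CD 2 held the lowest value of 19 of 47 members and the highest of 0. The highest values lay most often in WD 2 (9 members), CD 1 (8), WD 3 (7) and WD 5 (7), whereas WD 1 held the lowest value of 8 and the highest of 0. In kidney WD + CHP 5 was above the median of the 15 libraries for 5 of 47 members and CD 2 for 4, against 42 in WD 3. In gastrocnemius WD 5 held the highest value of 13 of 46 members and WD 3 that of 12, while WD + CHP 1 held the lowest value of 15 and WD + CHP 3 that of 11. The WD group in gastrocnemius was thus split, with WD 1 and WD 4 holding the highest value of 1 and 0 members. Groups without overlap were few: in kidney 2 members for WD vs. CD (Cmpk2 and Oas3, 8.70% of all genes), 0 for WD + CHP vs. WD (2.36%) and 1 for WD + CHP vs. CD (Ifih1, 8.34%), and in gastrocnemius 2 (Oas2 and Gbp7, 7.84%), 1 (Ifit2, 2.83%) and 2 (Ifih1 and Gbp7, 8.75%). The heatmap and the plot of extreme values show it library by library.

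**Figure D4:**
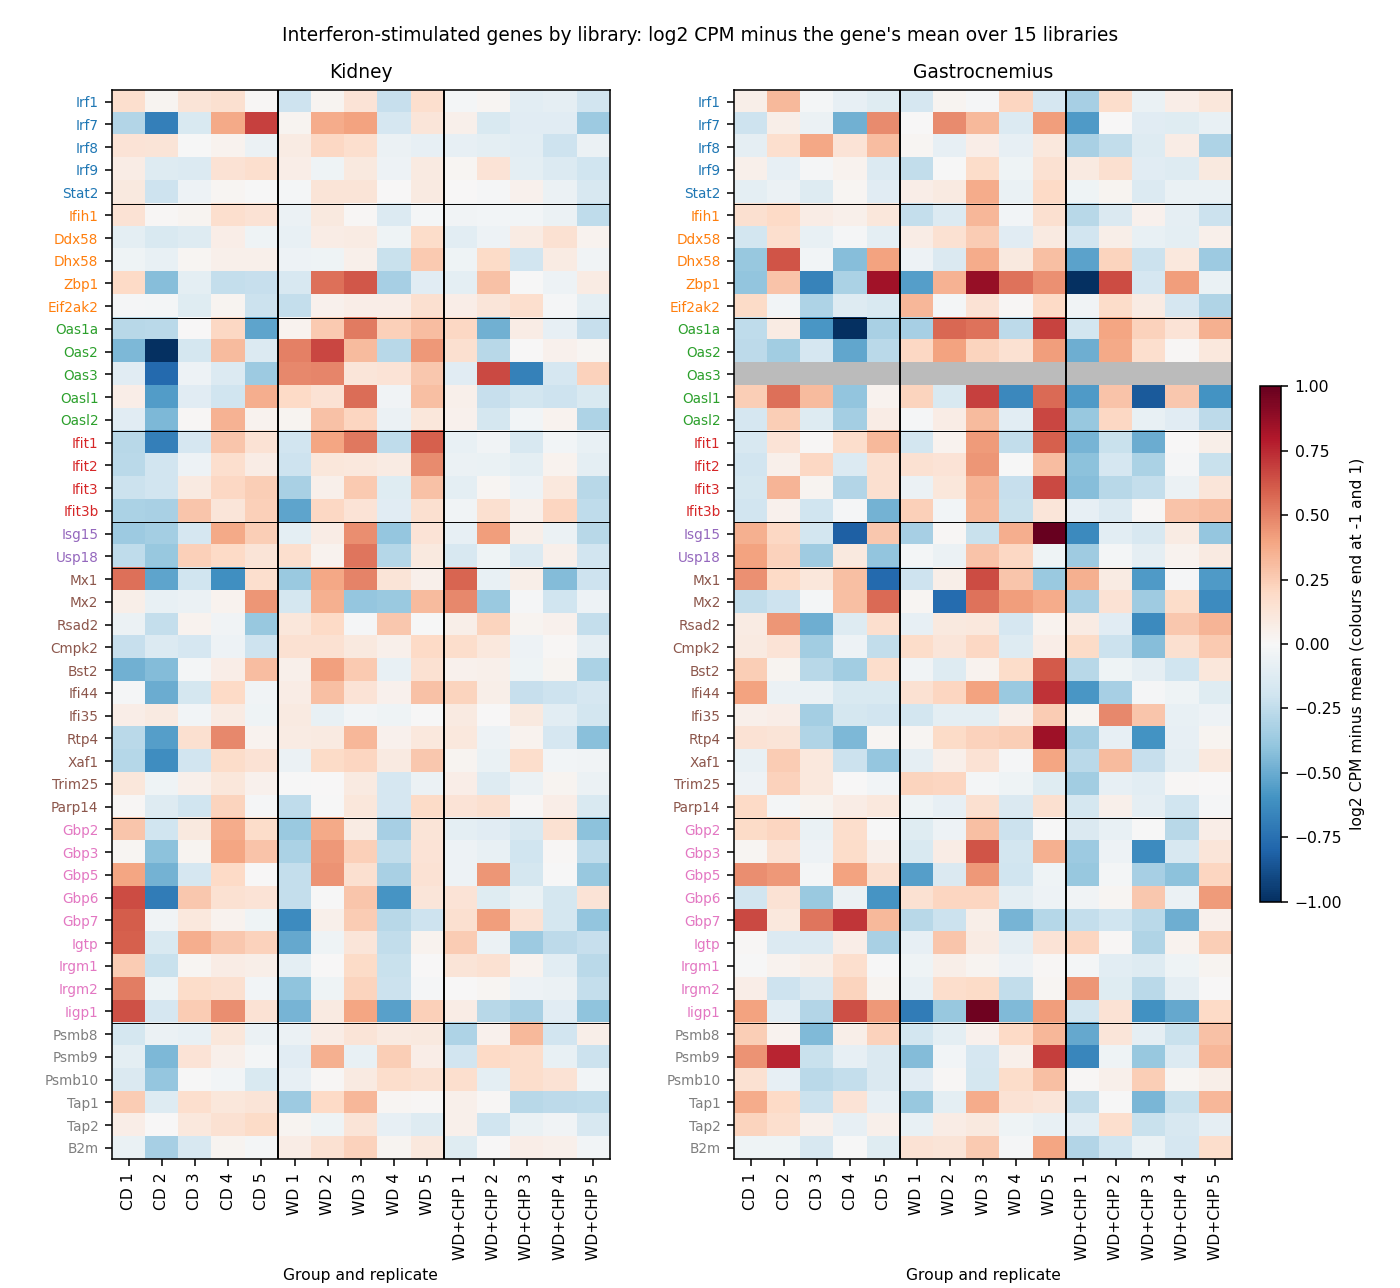
Log2 CPM of each member (rows, grouped by role) minus its mean over the 15 libraries of a tissue, in each library (columns), with red above and blue below the mean and colours ending at −1 and 1. The columns of CD 2 and WD + CHP 5 in kidney and those of WD + CHP 1 and WD + CHP 3 in gastrocnemius are mostly blue, and those of WD 3 in kidney and of WD 3 and WD 5 in gastrocnemius mostly red, and the grey row is Oas3, which did not pass the filter.

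**Figure D5:**
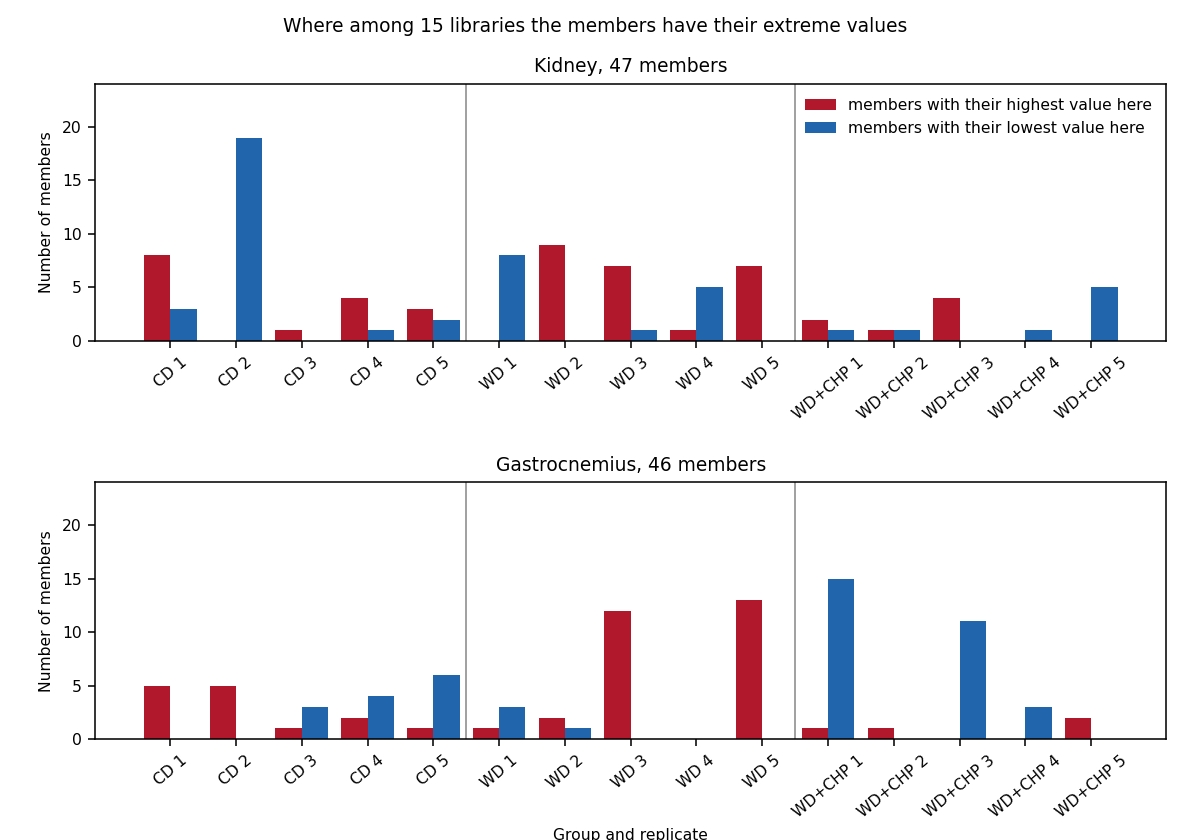
Number of members (vertical axis) with their highest value (red) and lowest value (blue) in each of the 15 libraries of kidney (top, 47 members) and gastrocnemius (bottom, 46 members). Lowest values gather in CD 2 of kidney (19) and in WD + CHP 1 of gastrocnemius (15), and highest values in WD 5 (13) and WD 3 (12) of gastrocnemius.

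Markers of other cells moved in part with the diet groups. In kidney the summed level of 6 T cell markers was 2.98 to 3.45 CPM in CD, 3.93 to 6.31 in WD and 3.48 to 4.71 in WD + CHP, and Lck and Cd8a, 2 of 5 tested, rose on WD. For 4 B cell markers the sums were 1.73 to 2.78, 2.24 to 8.67 and 2.39 to 5.15 CPM. Eng, 1 of 8 endothelial markers (median of the list 0.05), and Col1a1, 1 of 6 of fibroblasts (median 0.30), rose on WD in kidney, while the adipocyte markers Lipe and Cfd, 2 of 6 tested (median −0.63), fell. Of 10 proximal tubule markers 2 rose and 2 fell, and of 5 distal nephron markers 2 rose. In kidney the summed level of 5 pan-leukocyte markers was 36.7 to 46.8 CPM in CD, 42.8 to 54.3 in WD and 34.6 to 51.9 in WD + CHP, and that of 10 macrophage markers 148.8 to 177.6, 140.9 to 171.5 and 126.2 to 170.1 CPM. The endothelial sum was 410.7 to 487 CPM in CD, 444.9 to 492.1 in WD and 393.7 to 461.8 in WD + CHP. None of the macrophage or pan-leukocyte markers was called in any comparison in either tissue. In gastrocnemius the summed pan-leukocyte level was 9.45 to 14.5 CPM in CD, 12.3 to 16.7 in WD and 9.48 to 13.9 in WD + CHP, whereas the macrophage sum was 88.4 to 194.1, 94.5 to 146.6 and 87.2 to 315.1 CPM, with means of 118.4, 127.5 and 170.4 CPM. No T, B or NK cell marker passed the filter there. The sum of 8 adipocyte markers was 136.9 to 213.3 CPM in CD, 201.7 to 246.3 in WD and 126.1 to 194.0 in WD + CHP. Of these, Lep, Cidec, Plin1 and Adipoq rose on WD and fell in WD + CHP compared with WD, and Cfd fell on WD. The muscle fibre markers Ckm and Acta1, 2 of 10 (median −0.22), fell on WD. The part of these cells in the values of the members was not tested, and in bulk tissue fewer cells of a type and less RNA per cell cannot be told apart.

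Whether kidney and gastrocnemius differed in their response was tested by an interaction in the model over 30 libraries. Its p-values take all libraries as independent. Some mice may have given both tissues, and they could not be paired because the sources do not say which. For WD vs. CD, edgeR called 0 of 47 members, against 4.13% of all genes, and 2 had an unadjusted p under 0.05 (17.7% of all genes), Igtp at −0.56 ± 0.19 (kidney minus gastrocnemius, adjusted p = 0.087) and Gbp6 at −0.50 ± 0.24 (adjusted p = 0.28). With the total count Igtp was called, and limma-voom called 0 members. For WD + CHP vs. WD, edgeR and limma-voom called 0 members, against 0.347% of all genes in edgeR's test, and 0 had an unadjusted p under 0.05 (11.8% of all genes). The opposite signs of the GTPases and the OAS family in kidney were not tested against each other.

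A further 110 genes of the interferon pathway, chosen with earlier results of these data known, were read beside the members, of which 98 were tested in kidney and 97 in gastrocnemius. On WD, 3 rose and 3 fell in kidney, 6 of 98 where 9.65% of all genes were called. Of these Irf5, a factor of Toll-like receptor signalling, fell by 0.42 ± 0.08 on the log2 scale (adjusted p = 0.0046), H2-T22, a non-classical MHC class I chain, fell by 0.24 ± 0.05, and Jak2, a kinase of the interferon gamma receptor, fell by 0.18 ± 0.05. Lgals9, a galectin, rose by 0.35 ± 0.09 and Gbp8 by 0.63 ± 0.17. In gastrocnemius 5 rose and 1 fell, 6 of 97 where 8.63% of all genes were called. Helz2, a transcriptional coactivator, rose by 0.39 ± 0.06 (adjusted p = 0.0015), Mavs, the adaptor of the RNA sensors, by 0.28 ± 0.06, Shisa5 by 0.33 ± 0.08 and Ube2l6, the conjugating enzyme of ISG15, by 0.37 ± 0.10, and Jak2 fell by 0.39 ± 0.10.

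In WD + CHP vs. WD edgeR called 0 of these genes in either tissue, with 17 of 98 at an unadjusted p under 0.05 in kidney (11.4% of all genes) and 15 of 97 in gastrocnemius (12.5%). DESeq2 called 0 in kidney and 2 in gastrocnemius, Lgals3bp and Ube2l6, and limma-voom called 0 in both. Lower estimates were again the more frequent, 69 of 98 in kidney (median −0.05) and 77 of 97 in gastrocnemius (median −0.10), against 52.4% and 54.1% of all genes. In WD + CHP vs. CD 1 rose and 10 fell in kidney (11 of 98, against 12.1% of all genes), among them Mov10, an RNA helicase, by 0.27 ± 0.05, Tapbp, the tapasin that loads MHC class I, by 0.18 ± 0.04, H2-Q6 by 0.32 ± 0.07 and Irf2, a repressor of interferon targets, by 0.20 ± 0.05, while Gbp8 rose by 0.70 ± 0.17. The MHC class I chains are a family of similar sequences whose counts are uncertain. In gastrocnemius 4 rose and 2 fell (6 of 97, against 9.40% of all genes), among them Mavs, which rose by 0.34 ± 0.06, Traf3, an adaptor of the sensor pathway, by 0.29 ± 0.08, Helz2 by 0.23 ± 0.07 and Gbp10 by 0.64 ± 0.19, and Trim21, a cytosolic antibody receptor, which fell by 0.37 ± 0.11.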

How the data were processed

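RNA-seq of kidney and gastrocnemius was analysed. The authors deposited tables of raw counts, with 1 whole number for each gene in each library and no normalisation. They enriched polyA RNA, sequenced it on a BGISEQ platform, cleaned reads with SOAPnuke and aligned them with STAR (2.7.3a and GRCm38/mm10 in the submitters' processing notes). The counting tool, annotation and strand setting are not given in the sources used here, so overlapping and antisense genes cannot be separated. The tables use different annotation releases (1617 genes with another symbol) and were joined by Ensembl identifier, and coordinates are from GENCODE M21. All columns were matched to libraries. A chi-square of at least 8.82 per gene separated libraries of 1 group, so none was a copy. Replicates are separate libraries by label, so p-values measure the spread between them.
The tests were run with edgeR 4.0.16 in R 4.3.3 (filterByExpr, minimum count 10, TMM, quasi-likelihood F test, two-sided, 3 groups per tissue in 1 model, Benjamini-Hochberg over all genes, threshold 0.05). The interactions and the comparison of tissues used 1 model of 30 libraries, without a term for the mouse. DESeq2 1.42.0, limma-voom 3.58.1, other scalings and filters, a replicate block, a length and GC offset, 2-group fits and leaving out each library were alternatives. An SE is the fold change over the root of its F. Scripts were tested on simulated data. Plots used matplotlib 3.10.9 in Python 3.11.15.
The members, lists and tests were chosen with earlier results of these data known. Given in full are members called in at least 1 comparison and Irf7, Irf1, Ifit1, Isg15, Oas2, Gbp2, Igtp, Psmb8, Tap1 and B2m in both tissues. Of other pathway genes, at most 5 called per comparison are named, by smallest p. Genes named otherwise, as the extremes of a role or by unadjusted p, were chosen after their values were seen. Some single genes of the marker and pathway lists are not reported here.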

Additional observations from a re-analysis of the deposited data

Results flagged for a closer look

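In 12 of the 279 groups of 5 libraries, those of every tested member in each tissue and group, 1 library stood apart from the other 4 by a gap over the range above Dixon's critical value of 0.71, which chance gives in about 1 of 20 groups. No explanation was tested.

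In kidney, Gbp7 was at 20.1 CPM in CD 1 and at 12.8 to 14.3 CPM in the other CD libraries (gap over range 0.801). Ifih1 was at 14.9 CPM in WD + CHP 5 and at 17.1 to 17.5 CPM in the others (0.843), and Bst2 was at 5.55 CPM in the same library and at 6.73 to 7.17 CPM in the others (0.730). Rtp4 was at 5.93 CPM in WD 3 and at 4.85 to 5.07 CPM in the others (0.803). Mx2 was at 1.30 CPM in CD 5 and at 0.908 to 0.995 CPM in the others (0.776). Oasl1 was at 2.46 CPM in WD + CHP 1 and at 2.03 to 2.14 CPM in the others (0.739), and Ifit2 was at 14.1 CPM in WD + CHP 4 and at 12.9 to 13.2 CPM in the others (0.744).

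In gastrocnemius, Isg15 was at 1.68 CPM in WD 5 and at 0.458 to 0.738 CPM in the other WD libraries (0.771), and Rtp4 was at 2.80 CPM in the same library and at 1.58 to 1.85 CPM in the others (0.782). Irf7 was at 2.40 CPM in WD + CHP 1 and at 3.26 to 3.55 CPM in the others (0.747). Ifi44 was at 1.05 CPM in CD 1 and at 0.711 to 0.760 CPM in the others (0.853), and Psmb10 was at 6.14 CPM in WD + CHP 3 and at 5.24 to 5.40 CPM in the others (0.826).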

How the results depend on the processing

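The counts of called members depended on the setting. For WD vs. CD in kidney (2 members), DESeq2 called 5, and leaving out each library gave 1 to 4. For WD + CHP vs. CD in kidney (2), the total count gave 5, no filter 0, the replicate block 1, DESeq2 4, the fit of 2 groups 1, and leaving out each library 0 to 4. For gastrocnemius, the total count gave 4 for WD vs. CD (2), with 8 lower estimates in place of 14 (over all genes 1506 called higher and 346 lower in place of 720 and 610), and leaving out each library 2 to 4. DESeq2 called 1 for WD + CHP vs. WD (0), and leaving out each library gave 1 to 3 for WD + CHP vs. CD (2). The interaction for WD vs. CD had 1 call with the total count in place of 0. The cause was not tested. The members' median for WD + CHP vs. CD in kidney ran from −0.076 to 0.026 over the libraries left out. Over all genes, kidney WD + CHP vs. WD had 18 calls, 168 with DESeq2, 70 with the replicate block, 37 with no filter and 0 with the length and GC offset or 2 groups, and gastrocnemius had 63 calls, 249 with DESeq2 and 40 with no filter. Leaving out 1 library gave, over all genes, 0 (without WD 1, WD 4, WD 5, WD + CHP 3 or WD + CHP 4) to 97 (without WD 2) calls in kidney and 12 (without WD + CHP 5) to 92 (without WD 4) in gastrocnemius.

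Of 52 named gene results, which gave 988 values over the settings, 914 values kept direction and side of the threshold, 25 lost and 9 gained a call, and 40 changed sign, in 15 results of which 0 were called. Sign changes with a scaling or offset were Igtp in kidney WD + CHP vs. WD (0.0061, length and GC offset), Psmb8 in gastrocnemius WD vs. CD (−0.0041, same offset), and with the total count, in gastrocnemius, Irf1 for WD vs. CD (0.011) and WD + CHP vs. WD (−0.026), Tap1 for WD vs. CD (0.027) and Gbp7 for WD + CHP vs. WD (−0.036). Leaving out each library turned, in kidney WD vs. CD, Irf7 (−0.036 to 0.31), Isg15 (−0.038 to 0.20) and Tap1 (−0.13 to 0.033), and in kidney WD + CHP vs. WD Isg15 (−0.15 to 0.088), Igtp (−0.11 to 0.063) and Psmb8 (−0.16 to 0.0052). In gastrocnemius WD vs. CD it turned Irf1 (−0.12 to 0.030), Ifit1 (−0.074 to 0.15), Isg15 (−0.044 to 0.57), Psmb8 (−0.076 to 0.081) and Tap1 (−0.13 to 0.047), and in WD + CHP vs. WD Irf1 (−0.029 to 0.089), Gbp2 (−0.12 to 0.016), Igtp (−0.070 to 0.058) and Gbp7 (−0.067 to 0.088).

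Replicate numbers did not pair the libraries, with correlations of same-numbered libraries from −0.0907 to 0.144 in kidney and −0.126 to 0.146 in gastrocnemius, and 4 and 3 of 15 libraries correlated best with their own number. With the number as a block, 3 (Rsad2 added), 0 and 1 members were called in kidney and 2, 0 and 2 in gastrocnemius for WD vs. CD, WD + CHP vs. WD and WD + CHP vs. CD. The block with a length and GC offset was not run because the numbers do not pair the libraries. Low counts, as of Isg15, Oas2, Mx1 and Oas3, and of Zbp1 and Oas1a in gastrocnemius, limit precision.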
